A study of Mus musculus with 16 samples.

Results

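Basal goblet cells were 1008 of the 22717 colon cells measured by single-cell RNA-seq, and 1008 of 10373 epithelial cells. They were taken as the cells that the authors' annotation names BasalGoblet. The same annotation holds 2 further goblet types, Goblet1 with 238 cells and Goblet2 with 168 cells. Single libraries came from 16 C57Bl/6J mice (female, 7 weeks old, transverse colon), and each mouse is 1 replicate. A group of 6 mice had 4% dextran sulfate sodium (DSS) in the drinking water and a 10 mg/kg dose of SZN-1326-p on day 4. Another 6 mice had the same DSS and a 10 mg/kg dose of an anti-GFP antibody, which has no target in these mice. Both groups were taken at 24 h (day 5) or 48 h (day 6), 3 mice at each time. The 4 uninjured mice, 2 labelled with each time, had no DSS and no antibody, so anti-GFP against uninjured joins the effects of DSS and of an antibody dose. DSS is a polymer that damages the colon lining and gives an acute colitis. SZN-1326-p belongs to the antibody-based Wnt mimetics, proteins that bring Frizzled and LRP receptors together and so switch on Wnt signalling.

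Goblet cells are the secretory cells that make the mucus layer of the colon. Their main product is the gel-forming mucin Muc2, which is folded in the endoplasmic reticulum, glycosylated in the Golgi and packed into granules. Goblet cells arise from crypt progenitors under the transcription factors Atoh1 and Spdef and change as they move up the crypt, from the base, where Wnt signals are strongest, to the surface.

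The label was checked against 4 marker genes: Slc12a8, a solute carrier of the cation-chloride cotransporter family, the mucin Muc2, the transcription factor Spdef and Ern2, the goblet cell form of the stress sensor IRE1. All 4 had their highest mean in basal goblet cells among the 44 cell types that could be ranked. Levels here are normalized UMIs per cell, where a UMI is 1 counted molecule and the authors' size factor of each cell sets the scale. Slc12a8 (chr16:33517328-33664135, mm10) averaged 6.48 ± 1.46 in basal goblet cells (SD over mice), 2.49 ± 1.25 in Goblet1 and 2.04 ± 0.553 in Goblet2, against 0.033 in the rest of the epithelium. The annotation was made on these same expression values, so these levels describe the type and do not test it.

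The libraries gave 11 to 163 basal goblet cells per mouse and 125248 to 1245561 UMIs summed over these cells. The median depth was 8242 UMIs per cell in basal goblet cells, 7074 in Goblet1 and 29380 in Goblet2, and the median mitochondrial share of UMIs was 35.3%, 25.4% and 8.34%. At least 20000 UMIs were found in 88.1% of Goblet2 cells, against 4.96% of basal goblet cells. Across the series 64 cell barcodes occurred in more than 1 library, and none was shared by 2 basal goblet cells. Cells with a UMI of at least 2 markers of a lineage outside the epithelium made up 9.71% ± 5.52 of basal goblet cells in SZN-1326-p mice, 19.2% ± 9.57 in anti-GFP mice and 21.9% ± 14.1 in uninjured mice. Markers of B and plasma cells summed to 0.0617 to 0.834 UMIs per basal goblet cell in SZN-1326-p mice, 0.176 to 1.61 in anti-GFP mice and 0.996 to 14.1 in uninjured mice, with the immunoglobulin gene Igkc leading in each arm. Of that list of 10 genes, those at 0 included Cd79a, Cd79b, Ms4a1 and Mzb1 in SZN-1326-p mice, and Mzb1 and Iglc2 in anti-GFP mice. The summed level of 10 fibroblast markers was 0.314 to 3.53 in SZN-1326-p mice, 0.266 to 2.23 in anti-GFP mice and 0.179 to 0.422 in uninjured mice. In the same order of arms, 10 myeloid markers summed to 0.365 to 0.872, 0.453 to 1.81 and 0.339 to 0.726. For 10 T cell markers the sums were 0 to 0.14, 0 to 0.997 and 0 to 0.095. Those of 10 endothelial markers were at most 0.221 in any arm. The fits were repeated as an alternative without the cells that held at least 2 markers of another lineage. The part of free RNA in the results below was not tested.

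Basal goblet cells held Muc2 RNA at a level close to that of Goblet1 cells but far less RNA of the mucus proteins Zg16, Clca1, Fcgbp and Tff3. The values are from the 6 mice with at least 15 cells of both types. They were SZN-1326-p mice 2 and 3 at 24 h and 3 at 48 h, and anti-GFP mouse 3 at 24 h. The others were uninjured mouse 1 at 24 h and uninjured mouse 2 at 48 h. Muc2 averaged 675 ± 95.9 in basal goblet cells and 583 ± 111 in Goblet1, a median log2 difference within mice of 0.11. All log2 differences of genes are of levels plus 0.05, which understates those of genes at low levels. Zg16, a lectin that binds bacteria in the mucus, averaged 21.5 ± 12.9 in basal goblet cells and 1044 ± 393 in Goblet1. Clca1, a mucus metalloprotease, averaged 10.6 ± 11.6 in basal goblet cells and 535 ± 279 in Goblet1. The mucus protein Fcgbp averaged 20.0 ± 14.6 and the trefoil peptide Tff3 7.68 ± 4.5 in basal goblet cells, with 484 ± 204 and 172 ± 78.8 in Goblet1. Within mice the median log2 difference was -6.26 for Clca1 (range -8.26 to -4.64), -5.48 for Zg16, -4.39 for Tff3 and -4.36 for Fcgbp, and all 6 mice had the lower level in basal goblet cells. Spink1, a trypsin inhibitor, and Ang4, an antimicrobial ribonuclease, differed in the same direction, by -5.82 and -4.93.

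Of 5 measured Wnt targets, 3 were higher in basal goblet cells than in Goblet1 in every mouse, where 12.6% of all genes were, and none was lower: the ephrin receptor Ephb3 (median log2 difference 3.19), the hyaluronan receptor Cd44 (2.71) and the crypt transcription factor Sox9 (1.94). Of 5 measured stem cell and crypt base genes, Sox9 and Lrig1 were higher and Prom1 was lower in every mouse, and of 3 Wnt receptor genes Fzd5 was lower. The ETS factor Etv5 averaged 0.853 ± 0.303 in basal goblet cells and 0.00357 ± 0.00874 in Goblet1. The water channel Aqp1 averaged 1.19 ± 0.633 in basal goblet cells and 0.0308 ± 0.0480 in Goblet1. Nxpe2, Cmah, the potassium channel Kcnh3 and the non-coding RNA Meg3 were also higher in all 6 mice, with median log2 differences of 4.26, 3.90, 3.21 and 2.97. The mucin glycosyltransferases A4gnt and B3gnt6, which extends O-glycans, were higher by 3.65 and 2.67. Creb3l1, a transcription factor of the secretory pathway, averaged 3.88 ± 0.634 in basal goblet cells and 1.30 ± 0.329 in Goblet1. Atoh1 did not separate basal goblet cells from Goblet1, with a lower level in basal goblet cells in 5 of 6 mice and a higher one in 1.

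**Figure D1:**
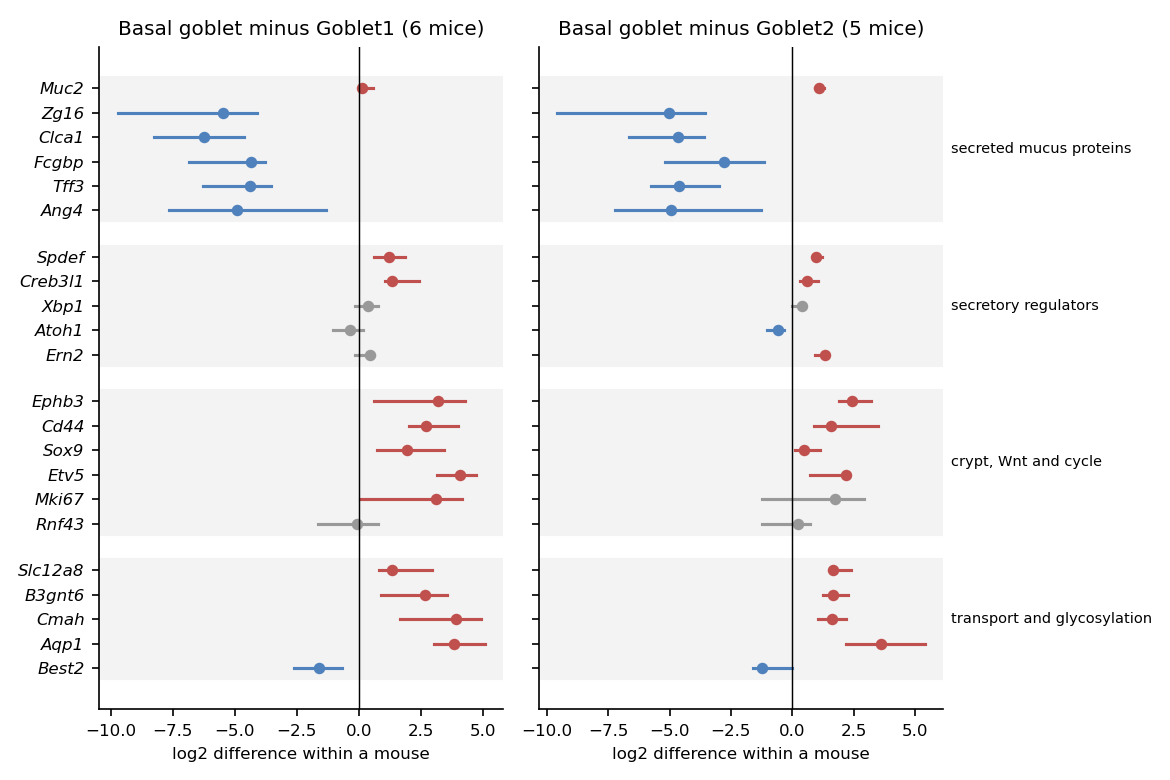
Log2 difference of basal goblet cells from Goblet1 (6 mice, left) and from Goblet2 (5 mice, right) within a mouse, on the x axis, for the genes on the y axis, with the median over mice as a point and the lowest to highest mouse as a line. Zg16, Clca1, Fcgbp, Tff3 and Ang4 lie left of 0 in every mouse in both panels, and Muc2, Spdef, Slc12a8, Ephb3, Etv5 and Aqp1 lie right of 0. Genes drawn in grey had mice on both sides. The 5 mice at right include no anti-GFP mouse.

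Across all genes, 414 of 3282 measured (12.6%) were higher and 338 (10.3%) were lower in basal goblet cells than in Goblet1 in every mouse. The mucus and secreted protein list had 2 higher and 8 lower of 22 measured, with a median log2 difference of -0.70 against 0.06 over all genes. The list of granule and exocytosis genes had 0 higher and 7 lower of 17. Mucin glycosylation had 9 higher and 2 lower of 38, genes of the endoplasmic reticulum and its stress response 4 higher and 2 lower of 41, and oxidative phosphorylation 7 higher and 1 lower of 30. These counts read levels scaled by each cell's size factor, from cells of different depths. With cells thinned to a common number of UMIs, 138 genes were lower in every mouse, of which 122 were among the 338.

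Against Goblet2, in 5 mice, the same mucus genes had a lower normalized level in basal goblet cells and Muc2 itself a higher one. These mice, with at least 15 cells of both types, were SZN-1326-p mice 2 and 3 at 24 h and 3 at 48 h. The others were uninjured mice 1 and 2 at 48 h, so no anti-GFP mouse is among them. Levels are scaled by each cell's size factor, and median depth was 29380 UMIs in Goblet2 and 8242 in basal goblet cells. A higher level here is therefore not a higher number of UMIs counted per cell. Muc2 averaged 620 ± 149 in basal goblet cells and 298 ± 91.4 in Goblet2, and Ern2 averaged 5.16 ± 1.22 and 2.20 ± 0.731. Zg16 averaged 22.6 ± 13.8 in basal goblet cells and 847 ± 399 in Goblet2, Clca1 5.24 ± 5.37 and 124 ± 79.8, and Fcgbp 14.6 ± 9.03 and 109.9 ± 67.0. All 5 mice had the lower level of these 3 genes in basal goblet cells. Cdkn1a, the cell cycle inhibitor p21, differed by -2.61, and the potassium channels Kcnh3 and Kcnn4 by 3.21 and 2.5. Of all 3338 genes measured, 26.1% were higher and 33.6% were lower in every mouse. Mucin glycosylation had 21 higher and 6 lower of 39, and oxidative phosphorylation 3 higher and 18 lower of 30. At a common number of UMIs 433 genes were higher in every mouse in place of 870, with 365 shared.

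Muc2 was present in nearly all basal goblet cells, while other mucus proteins and the non-coding RNA Meg3 were absent from many cells and high in some. Over the 16 mice the median of the 10th, 50th and 90th percentile cell was 106, 485 and 1218 normalized UMIs for Muc2 and 33.6, 93.3 and 238 for Agr2, the disulfide isomerase that folds it. For Zg16 the same percentiles were 0, 1.22 and 36.9, and 34.6% of cells had no UMI. Clca1 had no UMI in 71.9% of cells, Meg3 in 77.1% and the secretory peptide Reg4 in 83.8%. The 90th percentile cell held 48.4 of Meg3. A UMI of Mki67 or Top2a, genes of dividing cells, was found at a common depth of 3000 UMIs in 16.9% of basal goblet cells of SZN-1326-p mice, 18.2% of those of anti-GFP mice and 10.6% of those of uninjured mice (26.5%, 30.1% and 17.6% before thinning). Goblet1 cells gave 6.45%, 2.00% and 7.55% in the same arms. Goblet2 cells gave 11% in SZN-1326-p mice, 0 of 26 cells in anti-GFP mice, which allows up to 11.5%, and 5.08% in uninjured mice. Before thinning Goblet2 gave 26.8%, 30.8% and 16.7%, close to basal goblet cells but from cells of a median 29380 UMIs against 8242. Over all mice, vascular endothelium, which should hold few dividing cells, gave 6.17%, the type StemCell 15.2% and the type TA2 70.5%. These shares are of cells pooled over mice and carry no test. Neither Mki67 nor Top2a passed the test below between anti-GFP and uninjured mice (log2 0.99, adjusted p = 0.28, and 0.57, adjusted p = 0.36, limma).

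Basal goblet cells made up a smaller share of the epithelium in SZN-1326-p mice than in anti-GFP mice. Their share at 24 h was 9.01%, 8.85% and 11% in SZN-1326-p mice, 15.0%, 13.2% and 12.6% in anti-GFP mice, and 16.8% and 6.75% in uninjured mice. At 48 h it was 4.90%, 2.67% and 4.30% in SZN-1326-p mice, 7.23%, 14.7% and 5.73% in anti-GFP mice, and 10.3% and 12.9% in uninjured mice. At each time every SZN-1326-p mouse lay below every anti-GFP mouse, and the uninjured mice at 24 h lay far apart. The log2 difference of SZN-1326-p from anti-GFP was -0.51 at 24 h and -1.15 at 48 h, and -0.83 over both times (two-sided exact permutation within time, p = 0.005, the smallest this design allows, and 0.04 adjusted over 8 tests). Each mouse left out in turn gave -0.96 to -0.64, on the same side of the threshold. Anti-GFP mice differed from uninjured mice by -0.03 (exact p = 0.97), with the smallest possible p at 0.01. Counting error alone spans 1.54% to 4.61% for the lowest share, 12 of 449 cells (95% Wilson interval), and such intervals cover counting error only.

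Among goblet cells alone and among all cells of a library the difference did not pass. Among the 3 goblet types, basal goblet cells made up 81.8%, 68.0% and 56.6% at 24 h and 53.2%, 66.7% and 44.0% at 48 h in SZN-1326-p mice. In anti-GFP mice they made up 93.2%, 78.2% and 69.3% at 24 h and 56.7%, 77.1% and 36.7% at 48 h, and in uninjured mice 70.7% to 83.2%. The arms overlapped, and the log2 difference of SZN-1326-p from anti-GFP was -0.12 (exact p = 0.56). Of all cells in a library it was -0.26 (exact p = 0.51), and anti-GFP mice differed from uninjured mice by -1.2 (exact p = 0.06). The type EnteroPrecur held 34.5% to 42.4% of the epithelium in SZN-1326-p mice at 48 h and 3.40% to 9.90% in anti-GFP mice at 48 h. With EnteroPrecur cells left out of the epithelium the difference in share was -0.53 (exact p = 0.045, not adjusted).

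**Figure D2:**
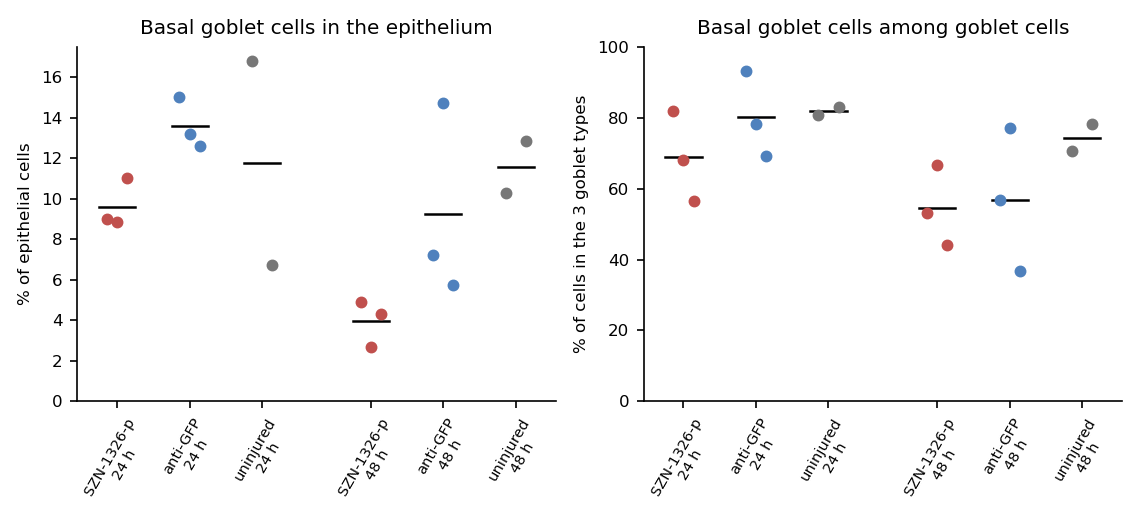
Share of basal goblet cells in percent of the epithelium (left) and of the 3 goblet types (right) on the y axes, with a point per mouse by arm and time on the x axis and the group mean as a line. All SZN-1326-p points lie below all anti-GFP points of the same time in the share of the epithelium, and these arms overlap in the share of goblet cells.

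Within basal goblet cells, DSS with anti-GFP went with higher RNA of genes of host defence and of cytokine signalling and with lower RNA of a second group that includes the Wnt receptor Fzd9. The fit used the 14 mice with at least 15 basal goblet cells, which left out SZN-1326-p mouse 2 and anti-GFP mouse 3 at 48 h (12 and 11 cells), though their values are printed. Of 7883 genes tested, 84 passed in the comparison of anti-GFP with uninjured mice (1.07%; limma, Benjamini-Hochberg adjusted p of at most 0.05), 45 higher (0.571%) and 39 lower (0.495%). The median log2 difference of all genes was -0.03. With UMIs scaled to a common total that median was 0.125, and 196 genes passed as higher and 47 as lower, so that 80.7% in place of 53.6% of the calls were higher. Median UMIs per basal goblet cell differed between anti-GFP and uninjured mice by 0.55 on the log2 scale (exact p = 0.09).

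Reg3b, a bactericidal lectin of the Reg3 family, was close to absent from basal goblet cells of uninjured mice. Its level was 3.94, 3.12 and 6.13 at 24 h and 1.15, 15.9 and 1.47 at 48 h in anti-GFP mice, against 0.0102, 0, 0 and 0.0385 in uninjured mice. The groups did not overlap, and the log2 difference was 6.16 (SE 0.92, limma adjusted p = 0.021). How many of all tested genes had groups without overlap was not counted. Genes named by size of change also needed every fitted anti-GFP mouse beyond the uninjured mean. Here and below, a lack of overlap therefore describes the values of a gene and adds no support to its call. The rest of the epithelium averaged 78.9 in anti-GFP mice and 1.02 in uninjured mice, and stromal cells 1.32 and 0.00435, so the Reg3b level was higher in anti-GFP mice there too. Retnlb, the goblet cell protein RELM-beta, was 8.33, 8.12 and 15.5 at 24 h and 39.2, 42.9 and 21.1 at 48 h in anti-GFP mice, against 2.84, 13.9, 1.70 and 3.53 in uninjured mice. A single uninjured mouse lay inside the anti-GFP range (log2 difference 2.36, SE 0.47, adjusted p = 0.030). Retnlb in the rest of the epithelium averaged 0.432 in anti-GFP mice and 0.195 in uninjured mice. In Goblet1 with Goblet2 it averaged 27.3 ± 18.6 in anti-GFP mice and 12.7 ± 12.8 in uninjured mice, in mice with at least 10 cells on each side. Its log2 change with DSS in basal goblet cells minus that in Goblet1 with Goblet2 was 0.0078 (SE 0.549). The Reg3b call was lost without anti-GFP mouse 1 at 24 h or any 1 of the 4 uninjured mice (adjusted p up to 0.137), and the Retnlb call without any 1 of the 5 anti-GFP mice or uninjured mouse 1 at 48 h (up to 0.138).

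Smpd3, a neutral sphingomyelinase, and Duox2, an oxidase that makes hydrogen peroxide at the mucosal surface, rose in a narrow range. Smpd3 was 2.88, 3.5 and 3.07 at 24 h and 2.69, 2.5 and 1.53 at 48 h in anti-GFP mice, against 1.02, 1.01, 1.06 and 1.18 in uninjured mice (log2 difference 1.38, SE 0.21, adjusted p = 0.00101). Duox2 was 1.69, 1.9 and 1.5 at 24 h and 1.76, 1.23 and 2.21 at 48 h in anti-GFP mice, against 0.653, 0.504, 0.555 and 0.723 in uninjured mice (1.32, SE 0.24, adjusted p = 0.0054). Neither gene's groups overlapped. Fut2, the fucosyltransferase of mucin and surface glycans, averaged 4.06 ± 0.794 in anti-GFP mice (n = 5) and 1.82 ± 0.261 in uninjured mice (n = 4), a log2 difference of 1.10 (limma adjusted p = 0.0076). Dmbt1, a secreted scavenger receptor, averaged 2.15 ± 0.953 and 0.807 ± 0.223 and overlapped (1.17, adjusted p = 0.023).

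Of 13 tested genes of NF-kB and cytokine signalling, 3 rose and none fell with DSS. Of all genes tested 0.571% rose and 0.495% fell. The list's median log2 difference was 0.45, against -0.03 over all genes. Lrg1, a leucine-rich glycoprotein of the acute phase response, was 0.0931, 0.230 and 0.252 at 24 h and 0.819, 0.477 and 0.257 at 48 h in anti-GFP mice, against 0, 0.0163, 0 and 0.0111 in uninjured mice (2.80, SE 0.45, adjusted p = 0.0018). Stat3, the transcription factor downstream of IL-6 and IL-22, was 1.83, 2.64 and 1.27 at 24 h and 1.68, 2.40 and 1.37 at 48 h in anti-GFP mice, against 0.734, 0.580, 0.782 and 0.997 in uninjured mice (1.28, adjusted p = 0.010). Socs3, the feedback inhibitor of that pathway, averaged 0.397 ± 0.151 in anti-GFP mice and 0.103 ± 0.0605 in uninjured mice (1.60, adjusted p = 0.021). The TNF receptor Tnfrsf1b averaged 0.643 ± 0.283 in anti-GFP mice and 0.167 ± 0.0453 in uninjured mice (1.70, SE 0.30, adjusted p = 0.0039). For all 4 genes the groups did not overlap. Stromal cells held 4.57 Socs3 UMIs in anti-GFP mice and 4.90 in uninjured mice, and 0.766 and 0.107 of Lrg1. AW112010, an RNA induced by interferon, rose by 2.11 and the surface protein Ly6a by 1.56 (adjusted p = 0.0020 and 0.036; Ly6a passed in 13 of 29 alternatives), while stromal cells averaged 2.43 and 8.29 of these in anti-GFP mice and 2.05 and 5.94 in uninjured mice. Levels of these genes in immune cells, which the annotation holds apart from stroma, were not taken. The part of stromal or immune RNA in these results was not tested. The remaining genes named by size of change among those that rose were Car8, Fry, Mgat4c, Zfp703 and Hsd11b2, by 1.73, 1.66, 1.38, 1.31 and 1.25, and Hsd11b2 passed in 12 of 29 alternatives.

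STAT factors bind palindromes of the form TTCNNNGAA, which read the same on both strands. This pattern was searched in the 250 bases before the RefSeq start of each gene (GRCm38.p6). It lay in 7.02% of all 32851 windows and in 6.61% of the 6246 tested genes with a window. Among the genes that rose with DSS, 3 of 25 with a window held it (12.0%), and 1 of 27 among those that fell (3.7%), shares that rest on few genes. The window of Stat3 itself, and those of Lrg1, Duox2 and Sycn, held no match. GENCODE vM21 places the starts of Reg3b and Socs3 farther upstream than RefSeq, so their matches lie within its gene models, and that of Tnfrsf1b lies before both starts. The 3 matches among the genes that rose are shown with 10 bases on each side, 5′ to 3′ on the strand of the gene, with the matched letters in capitals, and a match is a description of these letters only.
Reg3b, chr6:78370746-78370774, plus strand, match begins 129 bases before the start: agcctgttctTTCTTGGAAactctttgag
Socs3, chr11:117969502-117969530, minus strand, match begins 154 bases before the start: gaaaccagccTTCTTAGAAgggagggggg
Tnfrsf1b, chr4:145247033-145247061, minus strand, match begins 181 bases before the start: agcgcattcaTTCCCGGAAgagatgctgg

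**Figure D3:**
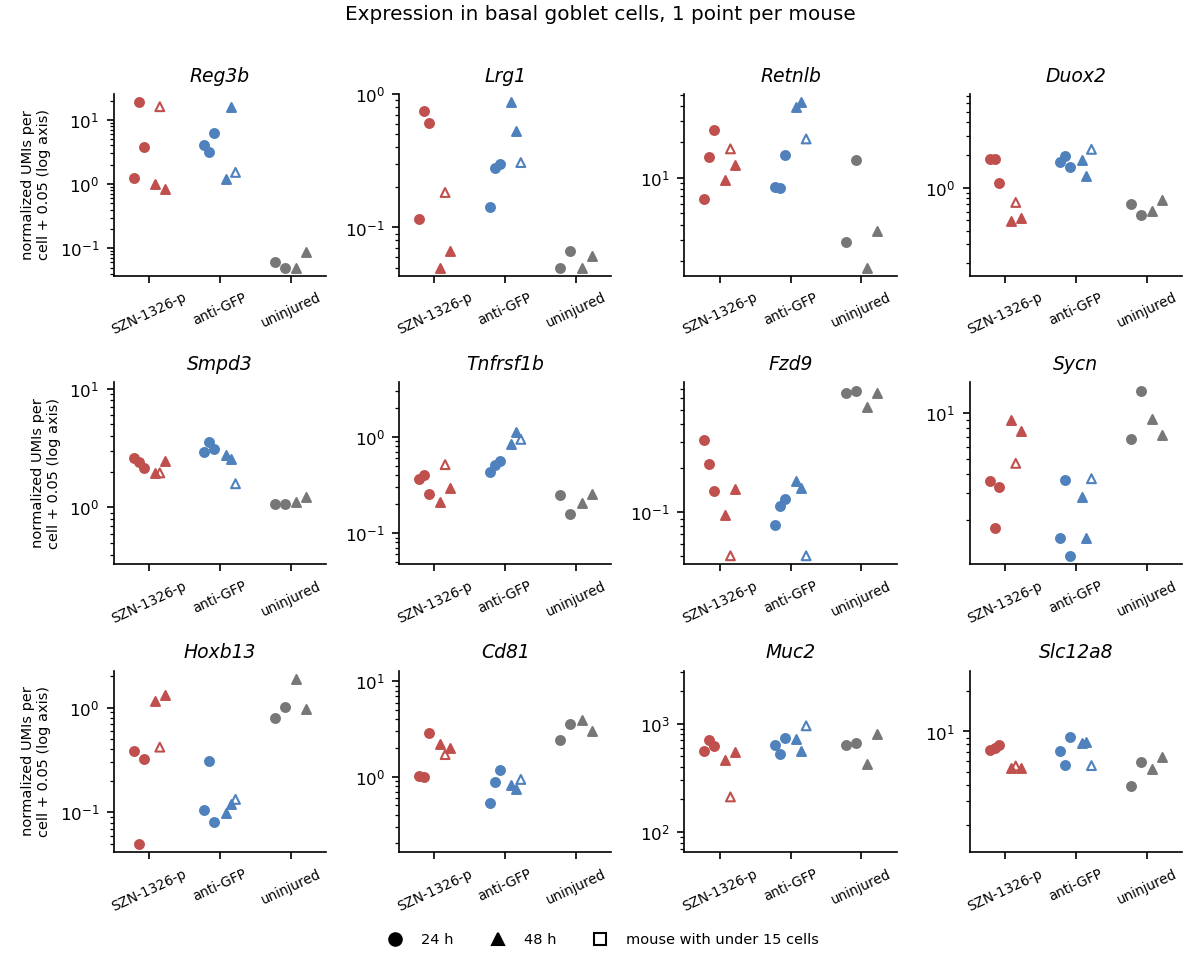
Normalized UMIs per basal goblet cell plus 0.05 on a log axis (y) for single genes, with a point per mouse by arm on the x axis, circles for 24 h, triangles for 48 h and open symbols for mice with under 15 cells. Reg3b, Lrg1, Smpd3 and Duox2 lie higher in anti-GFP than in uninjured mice, Fzd9, Sycn and Cd81 lie lower, and Muc2 overlaps in all arms.

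Fzd9, a Wnt receptor, fell with DSS. Its level was 0.0309, 0.0594 and 0.0732 at 24 h and 0.113, 0.0967 and 0 at 48 h in anti-GFP mice, against 0.607, 0.629, 0.475 and 0.608 in uninjured mice. Every anti-GFP mouse lay below every uninjured mouse (log2 difference -2.31, SE 0.34, adjusted p = 0.00101). The level in the rest of the epithelium was 0.00178 in anti-GFP mice and 0.00800 in uninjured mice, and 0.00268 and 0.00296 in stromal cells. Fzd9 (chr5:135248938-135251230, minus strand, mm10) was 1 of 7 tested Wnt receptor genes, and the only one to pass. Rasd2, a small GTPase, averaged 0.156 ± 0.121 in anti-GFP mice (n = 5) and 0.692 ± 0.0811 in uninjured mice (n = 4), and at most 0.0146 in the rest of the epithelium and in stromal cells (-2.01, limma adjusted p = 0.0063).

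Sycn, a secretory granule protein first described in the pancreas, was 1.48, 3.60 and 1.12 at 24 h and 2.79, 1.48 and 3.68 at 48 h in anti-GFP mice, against 6.77, 14, 9.17 and 7.16 in uninjured mice (log2 difference -2.18, SE 0.32, adjusted p = 0.00101). Sycn in the rest of the epithelium averaged 3.11 in anti-GFP mice and 10.9 in uninjured mice. In Goblet1 with Goblet2 it averaged 15.4 ± 8.81 and 21.3 ± 3.85 in these arms, in mice with at least 10 cells on each side. The tetraspanin Cd81 was 0.486, 0.825 and 1.14 at 24 h and 0.768, 0.688 and 0.888 at 48 h in anti-GFP mice, against 2.37, 3.49, 3.88 and 2.97 in uninjured mice (-1.99, SE 0.29, adjusted p = 0.00101). Hoxb13, the homeobox gene of the hindgut, was 0.0551, 0.261 and 0.0311 at 24 h and 0.0480, 0.0704 and 0.0831 at 48 h in anti-GFP mice, against 0.749, 0.958, 1.83 and 0.915 in uninjured mice (-3.17, SE 0.52, adjusted p = 0.0054). In none of the 3 genes did the groups overlap. Both membrane mucins that passed fell, 2 of 5 tested: Muc4 averaged 1.93 ± 0.291 in anti-GFP mice and 4.17 ± 0.254 in uninjured mice (-1.13, adjusted p = 0.0062), and Muc3, at 0.177 ± 0.107 and 0.555 ± 0.277, overlapped (-1.54, adjusted p = 0.032). Of the 5 membrane mucins tested, 3 had a positive difference, and the list median was 0.27, so the list as a whole did not fall. Of all genes tested 0.495% passed as lower. Muc3 averaged 18.5 in the rest of the epithelium in anti-GFP mice and 31.3 in uninjured mice. Wfdc2, a secreted protease inhibitor, averaged 0.529 ± 0.187 in anti-GFP mice and 2.39 ± 1.13 in uninjured mice (-2.00, adjusted p = 0.0076). St3gal6, a sialyltransferase, fell by 1.44, the alcohol dehydrogenase Adh1 by 2.25 and the cytochrome Cyp2c55, a colonocyte gene, by 1.73. Adh1 did not pass with all 16 mice (adjusted p = 0.329), where anti-GFP mouse 3 at 48 h, at 1.35, lay above every uninjured mouse (0.2 to 0.478). Other genes named by size of change that fell were Col8a1, Acta1, Tspan33 and Sorbs2, by 2.27, 2.13, 1.62 and 1.58.

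The calls depended on uninjured mouse 1 at 48 h. Without it 14 genes were called in place of 84, and of the 32 genes with a DSS call named above 10 stayed: AW112010, Cd81, Fzd9, Hoxb13, Hsd11b2, Lrg1, Smpd3, Socs3, Sycn and Tnfrsf1b. Without any other single mouse 21 to 32 of the 32 stayed, 21 of them without anti-GFP mouse 2 at 48 h. Without anti-GFP mouse 3 at 24 h the total was 230. The change with DSS differed between 48 h and 24 h for 2 genes (0.0254%). AW112010, Cd81, Fzd9, Lrg1, Smpd3 and Tnfrsf1b passed under every alternative in which they were tested. Without cells with 2 markers of another lineage, the DSS calls of Muc3 and Zfp703 were lost.

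The genes that define the goblet cell did not pass between anti-GFP and uninjured mice. Muc2 averaged 636 ± 94.3 in anti-GFP mice and 630 ± 160 in uninjured mice (log2 difference 0.04, SE 0.19, adjusted p = 0.95). The differences were 0.54 for Slc12a8 (SE 0.22, adjusted p = 0.26), 0.13 for Spdef, 0.10 for Ern2 and -0.26 for Atoh1, with SEs of 0.22 to 0.27. Zg16 averaged 16 ± 11.3 in anti-GFP mice and 12.4 ± 12.2 in uninjured mice, and Clca1 11.9 ± 12.5 and 9.36 ± 15.4, so that the mice of each arm spread more than the arms differed. Fcgbp (0.62), Tff3 (0.93), Agr2 (-0.70), Spink4 (-0.64), Creb3l1 (0.08), Xbp1 (-0.23) and Hspa5 (0.17) did not pass either. Reg3g differed by 4.52 (adjusted p = 0.086) and the chloride channel Best2 by -1.92 (adjusted p = 0.105). Reg4 differed by -2.38 (adjusted p = 0.32), with 1 uninjured mouse at 17.1 and the other 3 at 0.278 to 1.58.

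The lists are read against the 1.07% of all genes that passed with DSS, near which 0 calls are no result about a list of this size. The mucus and secreted proteins had 2 that rose and 1 that fell of 21 tested, the antimicrobial list 3 and 1 of 11, and mucin glycosylation 1 and 1 of 41. Retnlb, which rose, and Wfdc2, which fell, are on both the mucus and the antimicrobial list. None of 41 tested genes of the endoplasmic reticulum and its stress response passed (list median 0.09), none of 26 secretory transcription factors and none of 30 genes of oxidative phosphorylation (list median -0.39). The differences of the Wnt targets and receptors Rnf43 (-0.93, adjusted p = 0.26), Ccnd1 (0.92, adjusted p = 0.145) and Fzd5 (0.55, adjusted p = 0.40) did not pass. Axin2, Lgr5 and Myc were below the filter on low values. All 3 tested members of the B and plasma cell markers, which are immunoglobulin genes and the antibody joining chain, fell (list median -2.89). So 3 of the 39 lower calls are markers of another cell type. The part of free RNA of that type in the other calls was not tested.

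SZN-1326-p changed no gene of basal goblet cells past the test over both times. Of 7883 genes, 0 passed (0.0%; limma), 713 had an unadjusted p under 0.05 (9.04%), and 0 passed with voom weights on the recovered UMI sums. At 24 h 0 passed with 454 at an unadjusted p under 0.05 (5.76%), and the change between times had 0 and 489 (6.2%). Muc2 averaged 578 ± 92.9 in SZN-1326-p mice and 636 ± 94.3 in anti-GFP mice (log2 difference -0.17, SE 0.18, adjusted p = 0.79). Slc12a8 differed by -0.28, Spdef by -0.37, Ern2 by -0.01 and Atoh1 by 0.12, with SEs of 0.21 to 0.25. Rnf43, a Wnt target that removes Frizzled receptors from the surface, averaged 0.208 ± 0.0988 in SZN-1326-p mice and 0.0652 ± 0.0399 in anti-GFP mice (1.25, SE 0.37, adjusted p = 0.31). The 7 Wnt targets tested had a median of -0.02.

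At 48 h 3 genes passed (0.0381%), 1 higher (0.0127%) and 2 lower (0.0254%), with 720 at an unadjusted p under 0.05 (9.13%). Their adjusted p was 0.039 each. Adh1 was 0.393, 0.207 and 1.08 in SZN-1326-p mice, against 0.0373, 0.0095 and 1.35 in anti-GFP mice (log2 difference 3.30, SE 0.62). Lrg1 was 0, 0.133 and 0.0171 in SZN-1326-p mice, against 0.819, 0.477 and 0.257 in anti-GFP mice (-3.55, SE 0.67). Nbea, a membrane trafficking protein, was 0, 0 and 0.0535 in SZN-1326-p mice, against 0.503, 0.414 and 0.298 in anti-GFP mice (-2.82, SE 0.54), and was chosen for naming after its values were seen. The mouse left out of the fit for its 11 cells had the highest Adh1 level of the anti-GFP arm, and Adh1 did not separate the arms with it. Neither Adh1 nor Lrg1 passed with all 16 mice. Each of the 3 genes passed in 15 of 29 alternatives, of which 10 were fits with a mouse left out. For Adh1 and Lrg1 none of these 10 left out a fitted SZN-1326-p or anti-GFP mouse at 48 h. For Nbea only that without SZN-1326-p mouse 3 at 48 h did. Leaving out such a mouse leaves 1 in its group. With a mouse left out the log2 difference was 2.62 to 3.97 for Adh1, -3.91 to -3.19 for Lrg1 and -3.34 to -2.29 for Nbea.

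Both comparisons share the anti-GFP mice, so the values of the DSS genes are given side by side with no measure of likeness. Smpd3 was 2.54, 2.36 and 2.08 at 24 h and 1.89, 1.90 and 2.39 at 48 h in SZN-1326-p mice, with a log2 difference from anti-GFP of -0.35 (adjusted p = 0.60). Fzd9 was 0.259, 0.163 and 0.0880 at 24 h and 0.0445, 0 and 0.0946 at 48 h in SZN-1326-p mice, a difference of 0.31 (adjusted p = 0.79), and all 6 mice lay below the 4 uninjured ones. Sycn was 3.55, 1.73 and 3.22 at 24 h and 8.95, 4.65 and 7.64 at 48 h in SZN-1326-p mice (1.28, adjusted p = 0.18). Hoxb13 was 0.333, 0 and 0.275 at 24 h and 1.11, 0.369 and 1.27 at 48 h in SZN-1326-p mice (1.96, adjusted p = 0.25). At 48 h the SZN-1326-p levels of Sycn and of Hoxb13 lay above those of all 3 anti-GFP mice. Duox2 was 1.78, 1.79 and 1.06 at 24 h and 0.447, 0.681 and 0.475 at 48 h in SZN-1326-p mice, below all anti-GFP mice at 48 h (at 48 h -1.57, adjusted p = 0.087). Tnfrsf1b averaged 0.256 ± 0.0774 in SZN-1326-p mice and 0.643 ± 0.283 in anti-GFP mice (-1.27, adjusted p = 0.153). None of these differences passed.

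**Figure D4:**
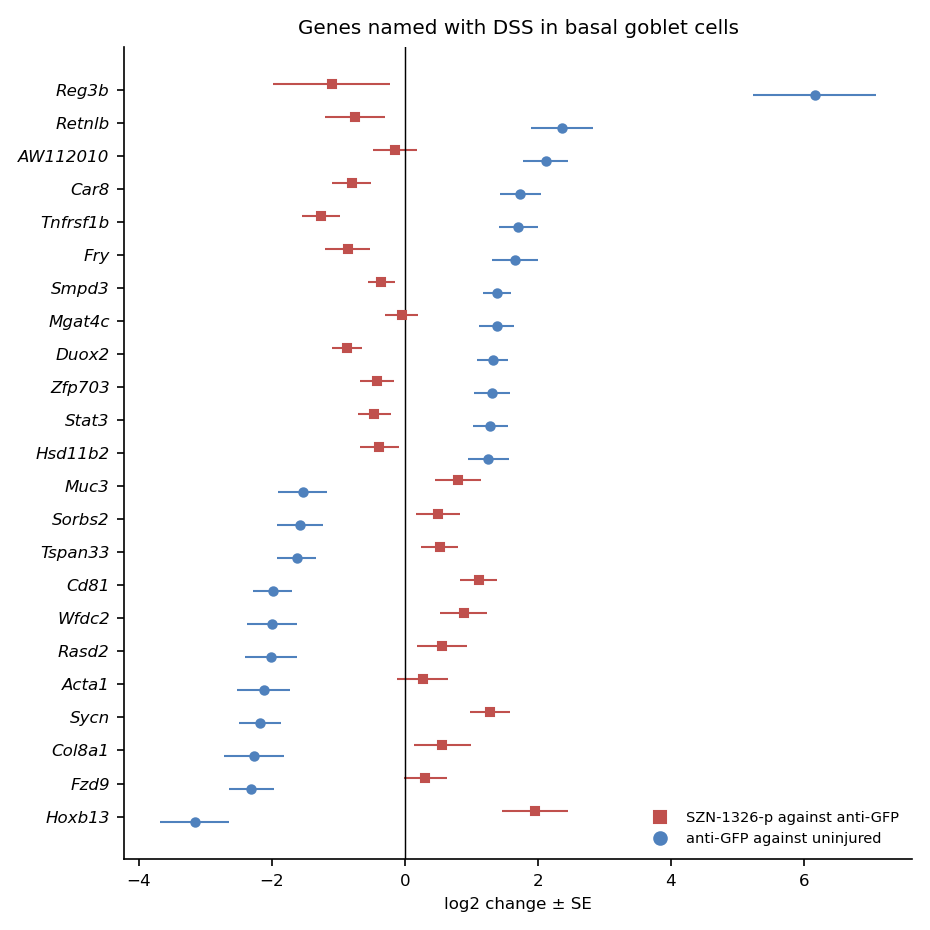
Log2 difference of anti-GFP from uninjured mice and of SZN-1326-p from anti-GFP mice (x axis) for the genes of basal goblet cells named by size of change with DSS (y axis), with the standard error as a line. All DSS values shown passed limma's test, none of the SZN-1326-p values did, and both differences use the same anti-GFP mice.

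No fixed list had a gene that passed with SZN-1326-p over both times. The median log2 difference from anti-GFP was 0.24 for the 21 mucus and secreted proteins, 0.34 for 29 genes of ribosome biogenesis and 0.26 for oxidative phosphorylation, against 0.00 over all genes. Among lists with at least 5 tested genes the median ran from -0.27 for NF-kB and cytokine signalling, with 11 of 13 genes below 0, through 0.39 for 5 membrane mucins to 0.58 for 11 antimicrobial genes. SZN-1326-p mice against uninjured mice gave 13 calls (0.165%), 9 higher (0.114%) and 4 lower (0.0507%).

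The change with DSS was set against that in the other goblet cells by the difference between basal goblet cells and Goblet1 with Goblet2 within each mouse. With 5 SZN-1326-p, 5 anti-GFP and 4 uninjured mice in the fit, 2 of 7808 genes (0.0256%) differed in their change with DSS (523 at an unadjusted p under 0.05, 6.7%), and 0 in their change with SZN-1326-p by limma (492, 6.3%). Both genes, Lbp and Bhmt, were at or near 0 in basal goblet cells of every arm and passed the filter only through the other goblet cells of anti-GFP mice, so the difference holds the change in Goblet1 with Goblet2 over the added 0.05 and compares no measured change in basal goblet cells. Lbp, which binds bacterial lipopolysaccharide, averaged 0.0528 ± 0.0847 in basal goblet cells and 1.89 ± 1.2 in Goblet1 with Goblet2 of anti-GFP mice (n = 5), and 0 and 0.00357 ± 0.00713 in the same cells of uninjured mice (n = 4). Bhmt, an enzyme of methionine metabolism, was at 0 in basal goblet cells of every mouse fitted and averaged 0.982 ± 0.710 in the other goblet cells of anti-GFP mice, and 0 in those of uninjured mice.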

How the data were processed

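Droplet single-cell RNA-seq (10x Genomics) gave 1 library for each of 16 mice. Cell Ranger 3.0.2 and the mouse genome build mm10 were used, per the submitters' processing notes, and other steps are not given in the sources used here. The values deposited by the authors were log2 of 1 plus the UMI count scaled by a size factor per cell. Whole UMIs were recovered from 100% of the 60867816 values above 0 (tolerance 1e-06). The other deposited columns were text labels of the authors for the mouse, group, tissue layer and cell type of each cell. The group SWAP in them was taken as SZN-1326-p, the only group left by elimination. How doublets were treated was not stated, and no caller was run.

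Normalized UMIs were averaged over the basal goblet cells of each mouse, and log2 of the mean plus 0.05 was tested with limma 3.58.1 (trend, robust; R 4.3.3) in 1 fit of 6 groups, with 14 mice of at least 15 cells and 8 residual degrees of freedom. The test for counts that had been planned was not used, since the unit was log2. The 48 h arms with DSS then held 2 mice each. Genes needed a mean of at least 0.1, and p-values were adjusted by Benjamini-Hochberg over all genes tested. Levels carry the SD over these mice. Shares were compared as log2 with 0.5 cell added, by two-sided exact permutation within time (Python 3.11.15, numpy 2.4.6, scipy 1.17.1, pandas 2.3.3). Differences between goblet types carry no test, because the types were defined on the same genes. Change in basal goblet cells minus change in Goblet1 or in Goblet2 had too few mice to be fitted for each type, so both were pooled, with at least 10 cells on each side. The fit was tested on simulated data.

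Genes were named by size of change, up to 12 in each direction with a mean of at least 0.5 in the higher group and every mouse of 1 arm beyond the mean of the other, and up to 15 against each goblet type. Up to 6 called members of each of 30 lists, and a fixed set of goblet, Wnt and cycle genes, were added, and not all of these are printed for every comparison. Immunoglobulin genes were counted but not named by this rule. A gene that the rule chose is not reported here. Members, lists and comparisons were chosen with earlier results of these data known. Same-numbered mice of a time deviated together in part (11 pairs, mean correlation 0.096, range -0.231 to 0.417, 4 pairs over 0.1). Pairs of other numbers at the same time had a mean of -0.0483. At 24 h the pairs of mice numbered 1 had 0.267, 0.301 and 0.417, and that of mice numbered 3 had 0.336. Pairs of mice numbered 2 at 24 h had -0.231, -0.098 and 0.096. The main fit did not take numbers as pairs, and a replicate block was run as an alternative. Coordinates are from GENCODE vM21, where 15881 of 16039 symbols were found. Alternatives covered filters, pseudocounts, scalings, weights, cells, mice and denominators.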

Additional observations from a re-analysis of the deposited data

Results flagged for a closer look

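Lbp and Bhmt passed the test of a different change with DSS in basal goblet cells and in the other goblet cells of the same mice, at -4.11 (limma adjusted p = 0.038) and -4.15 (adjusted p = 0.040) on the log2 scale. Both were at or near 0 in basal goblet cells of every arm, so these values are set by the change in Goblet1 with Goblet2 over the added 0.05 and say nothing of a change in basal goblet cells. Lbp averaged 0.00361 UMIs in basal goblet cells and 0.148 in Goblet1 with Goblet2 of SZN-1326-p mice, against 0.0528 and 1.89 in anti-GFP mice. Neither call passed without any 1 of the 4 uninjured mice (Lbp adjusted p = 0.286 to 0.310, Bhmt adjusted p = 0.299 to 0.316).

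Acta1, skeletal muscle actin, and Ang4 stood out because their difference between anti-GFP and uninjured mice was not the same at both times, a contrast added after the data were seen. Acta1 in basal goblet cells was 0.422, 0.139 and 0.691 at 24 h and 0, 0.0236 and 0.191 at 48 h in anti-GFP mice, against 0.467 and 0.255 at 24 h and 1.12 and 1.13 at 48 h in uninjured mice. Its log2 difference was 0.03 at 24 h and -4.28 at 48 h, which differ by -4.31 (SE 0.79, limma adjusted p = 0.047). Ang4 was 0.367, 0.106 and 0.440 at 24 h and 0.116, 0.286 and 0 at 48 h in anti-GFP mice, against 2.10 and 1.13 at 24 h and 0.0172 and 0.0429 at 48 h in uninjured mice. Its log2 difference was -2.33 at 24 h and 1.58 at 48 h, which differ by 3.91 (SE 0.73, adjusted p = 0.047). In both genes the uninjured mice labelled 24 h and those labelled 48 h, all without DSS or a dose, lay apart. What set these 2 pairs apart was not tested.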

How the results depend on the processing

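The number of genes called with DSS, 84, was 243 with UMIs scaled to a common total (78 shared) and 191 without mitochondrial genes, 184 with the difference of long and short transcripts in stromal cells as a covariate (74 shared), 47 with at least 40 cells per mouse, 43 with no filter on low values and 389 with voom weights (333 higher, 56 lower, 76 shared). It was 14 without uninjured mouse 1 at 48 h and up to 230 without anti-GFP mouse 3 at 24 h. With the replicate block it was 147 (82 shared). The block made the SZN-1326-p calls at 48 h 0 and those of DSS between types 0, and kept 1 of the 2 calls of DSS at 48 h minus at 24 h (Ang4 was lost). Among named genes with DSS, Hsd11b2 was lost and Best2 passed under it. For the share of the epithelium in SZN-1326-p against anti-GFP mice, exact permutation within blocks gave p = 0.031, the smallest that these blocks allow. Whether replicate numbers pair these mice is not given in the labels, and at 24 h some same-numbered mice deviated together.

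For SZN-1326-p over both times, with 0 called, 1 passed with all 16 mice or a pseudocount of 0.01, 2 without both SZN-1326-p mice of high mitochondrial share, 16 with the transcript length covariate and 6 without cells with 2 markers of another lineage, and 0 to 6 with a mouse left out. At 24 h a mouse left out gave 0 to 2. At 48 h, with 3 called, 6 passed with all 16 mice, 5 at a common total, 39 with the covariate (3 shared), 1 without the mice of high mitochondrial share or with no filter, 0 with a mean of at least 0.3, at least 40 cells, weights by cells, no cells with 2 other markers or voom weights, and 0 to 14 with a mouse left out. The change between times had 1 in place of 0 at a common total, with or without mitochondrial genes, and 0 to 1 with a mouse left out.

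DSS at 48 h minus at 24 h had 2 calls, 1 with only both arms fitted, and 0 with all 16 mice, weights by cells, a common total with or without mitochondrial genes, a mean of at least 0.3, at least 40 cells, no filter or voom weights, and 0 to 2 with a mouse left out. DSS between types had 2 calls, 1 with a mean of at least 0.3, 0 with no filter or a pseudocount of 0.01, 8 with a pseudocount of 0.2, and 0 to 4 with a mouse left out. SZN-1326-p between types had 0 calls, 2 with a pseudocount of 0.2, and 0 to 1 with a mouse left out. The share difference of SZN-1326-p from anti-GFP was -0.123 among goblet cells and -0.264 among all cells. UMIs per cell moved by 0.313 to 0.785 with DSS (main value 0.549) and by -0.599 to -0.365 with SZN-1326-p (main value -0.485, exact p = 0.06) with a mouse left out. Thinned cells gave 138 genes lower than in Goblet1 and 433 higher than in Goblet2. No alternative turned the direction of a called value. For the alternatives that moved a count the cause was not tested. Few cells per mouse at 48 h limit the depth of those values, and 2 mice per arm limit the tests there.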
